A study of Mus musculus with 32 samples.

Results

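The genes described here are 10 members of the circadian clock, namely Arntl, Clock, Per1, Per2, Per3, Cry1, Nr1d1, Nr1d2, Dbp and Tef, taken by name from the 54532 genes of a liver RNA-seq count table. The livers came from 32 C57BL/6 mice of 12 weeks, males and females, that were wild type (WT) or lacked functional Cyp2c70 (Cyp2c70 KO, with an exon removed by CRISPR-Cas9 in a line descended from a single founder). Each genotype and sex was kept on chow or switched to a diet with 0.006% SC-435 (about 11 mg/kg/day), an inhibitor of the ileal bile acid transporter. The labels place the switch 3 weeks after weaning and the study's own description places it at weaning, so the length of treatment is uncertain. This gave 8 groups of 4 mice. Cyp2c70 is the mouse liver enzyme that makes muricholic bile acids, and the study compared the genotypes and the diets within each sex. The mice were fed ad libitum, were not fasted, shared a room with a light-dark cycle, and had PBS-perfused livers. Neither the labels nor the methods give the hour at which each mouse was killed, so an effect of group and a difference in collection time cannot be told apart in these data.

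The molecular clock is a feedback loop of transcription. ARNTL (also called BMAL1) and CLOCK form the activator, which binds E-box sequences and switches on the genes for its own repressors, the PER and CRY proteins, and for the nuclear receptors REV-ERBα and REV-ERBβ (Nr1d1 and Nr1d2). The REV-ERBs in turn repress Arntl through RORE sequences, while DBP and TEF, transcription factors of the PAR bZIP family, carry the rhythm to liver output genes through D-box sequences. In mouse liver kept on a normal light-dark cycle and normal feeding, Arntl mRNA and Dbp mRNA peak at nearly opposite times of day, Clock mRNA changes little, and feeding time can shift all of them. A single liver therefore shows 1 moment of a cycle.

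Libraries held 36476021 to 44771350 counts. Male WT chow replicate 1 stood apart: its TMM normalization factor was 0.622, against 0.911 to 1.26 in the other 31 libraries, its mean correlation with its own group was 0.918, against 0.962 to 0.989, and its 5 hepatocyte markers summed to 170079 CPM (counts scaled to a library total and TMM factor), against 65542 to 75249 CPM in its 3 group mates. Where leaving out this mouse changed a call or moved a value strongly, the value without it is given too. Cyp2c70 itself ran from 271 to 838 CPM over the WT libraries and from 109 to 188 CPM over the KO libraries, and the exons left in the mutant allele can still be counted. Hepatocyte markers dominated in every group (42354 to 170079 CPM), and none of the 5 was at 0. Levels are relative to all counts of a whole liver piece, in which fewer cells of a type and less RNA per cell cannot be told apart.

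Short stretches near the start sites of 5 members are shown because they hold the sequences through which the loop is known to act. The 300-base promoter windows (250 bases before to 50 after a start site, RefSeq, GRCm38.p6) were found for 9 of the 10 members, in 14 windows, and searched on both strands. Capitals mark the match. Of all 32851 windows, 7.15% held the E-box CACGTG, 1.06% a D-box (TTATGTAA or TTACGTAA) and 6.45% the 7-letter core of a RORE (TAGGTCA or TGGGTCA). Of the 14 member windows, 4 held the E-box, 1 a D-box and 1 the RORE core. The windows of Clock, Nr1d1, Nr1d2 and Dbp held none of them. An E-box stood 60 bases before the start site of Cry1 (chr10:85185083-85185140, minus strand, outside annotated genes), 166 bases before one of Per1 (chr11:69098757-69098814, plus strand, inside the gene but in no exon) and 138 bases before one of Tef (chr15:81811250-81811307, plus strand, inside the gene but in no exon). The D-box occurred at 205 and at 158 bases before the start of Per3 (chr4:151044790-151044896, minus strand, within the gene Camta1), and the RORE core lay 31 bases into the Arntl transcript (chr7:113207530-113207558, plus strand, in an untranslated part of an exon). A further E-box lay 127 bases before another start site of Tef, where an exon of Tef is annotated, and is not printed.
Cry1 E-box: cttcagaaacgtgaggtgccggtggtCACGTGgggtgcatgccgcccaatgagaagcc
Per1 E-box: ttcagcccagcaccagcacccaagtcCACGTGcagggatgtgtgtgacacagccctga
Tef E-box: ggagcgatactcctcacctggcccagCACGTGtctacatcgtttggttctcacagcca
Per3 D-box: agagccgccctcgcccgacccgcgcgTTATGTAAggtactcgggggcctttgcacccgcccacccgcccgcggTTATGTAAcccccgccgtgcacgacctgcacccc
Arntl RORE core: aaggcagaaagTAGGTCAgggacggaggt
These matches are descriptions of sequence, and none of the files measured binding at them.

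All 10 genes were measured in every library, with the lowest count in any liver at 32 (Per3) and the highest at 10003 (Tef). Scaled by gene length, the mean level over the 32 mice was highest for Nr1d1 (35.8 CPM per kb), followed by Tef (15.4), Nr1d2 (15.3) and Dbp (14.2), while Per1 (4.57), Clock (4.15), Cry1 (2.94), Per2 (2.86), Arntl (2.09) and Per3 (1.56) were lower. The outputs and the REV-ERBs were thus the more abundant transcripts. Between the highest and the lowest mouse, Dbp differed 171-fold in CPM, Per3 29.99-fold (its lowest value, 1.25 CPM, was male WT chow replicate 1, and the next lowest 2.24 CPM), Arntl 16.6-fold and Per1 15.7-fold, whereas Tef (5.73-fold) and Nr1d1 (5.87-fold) differed least.

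**Figure D1:**
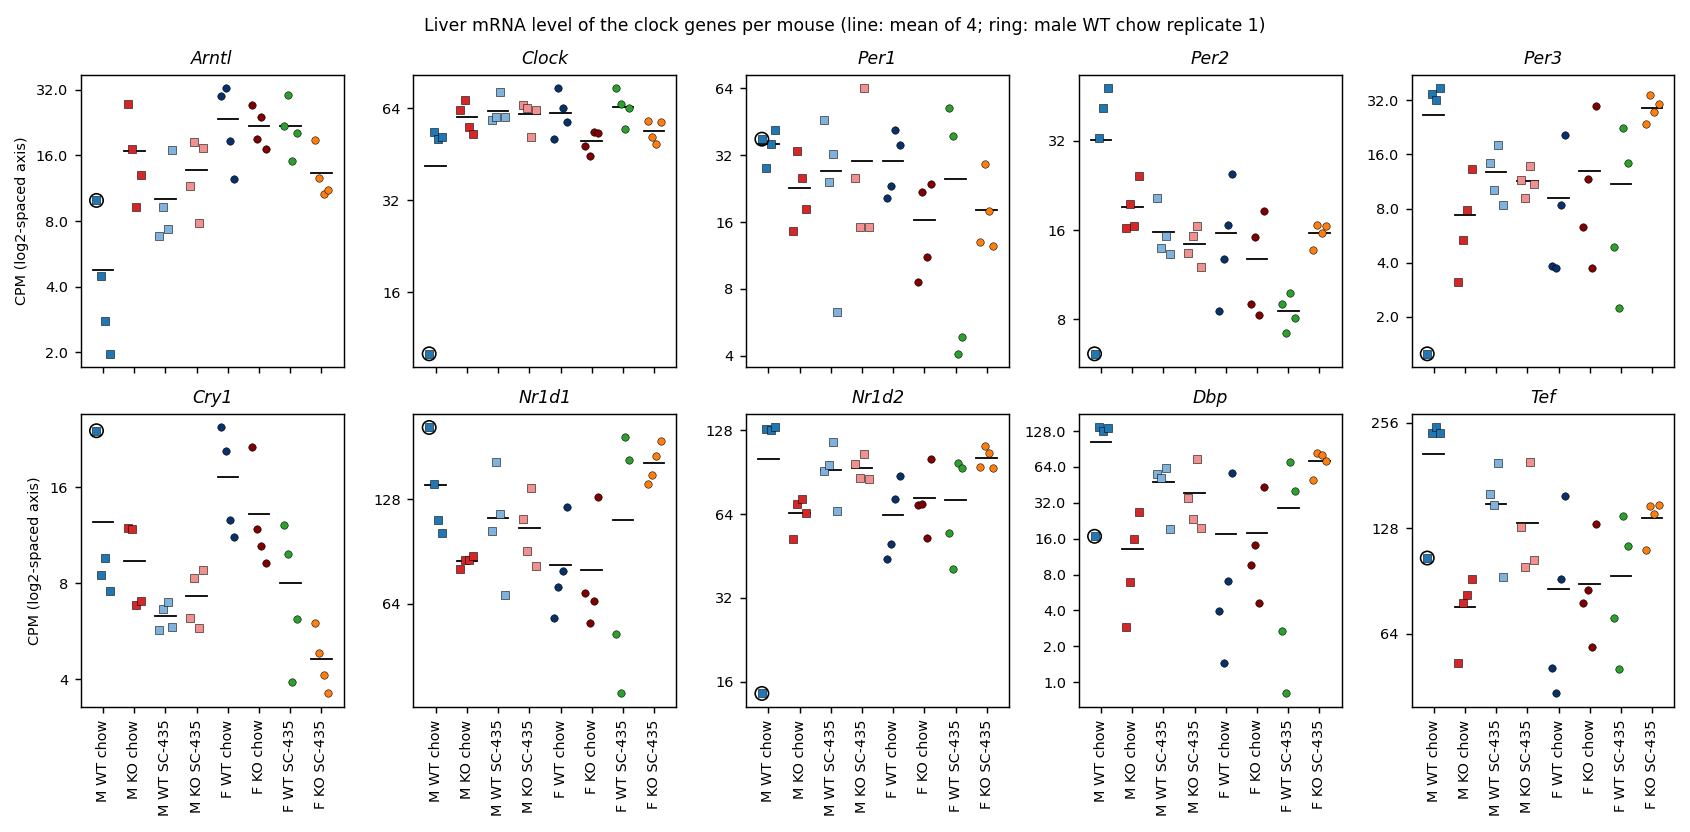
Level of each clock gene (y axis, CPM on a log2-spaced axis) in each of the 32 livers, by group (x axis, M males and F females); squares are males, circles females, black lines group means, and the ring marks male WT chow replicate 1. Dbp spans 0.805 to 137 CPM, and the ringed mouse lies at the bottom of Clock, Per2, Per3 and Nr1d2 and at the top of Nr1d1.

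Arntl (ENSMUSG00000055116, chr7:113207465-113314126, plus strand) encodes the activator subunit whose amount is rhythmic. In male WT mice on chow it stood at 9.94, 4.46, 2.80 and 1.97 CPM in replicates 1 to 4, the lowest group mean of the 8 (4.79 ± 3.59, SD, n = 4). In male KO mice on chow it stood at 27.5, 17.02, 9.23 and 12.98 CPM. Only replicate 1 of the WT mice reached the range of the KO mice. The female groups on chow were higher still: WT females had 29.8, 32.6, 18.7 and 12.5 CPM, and KO females 27.1, 19.0, 23.9 and 17.1 CPM. With SC-435, KO females had 18.8, 12.6, 10.7 and 11.1 CPM, so 3 of these 4 mice lay below every KO female on chow. The remaining groups lay at 6.83 to 17.001 CPM (male WT, SC-435), 7.87 to 18.4 CPM (male KO, SC-435) and 15.1 to 30.1 CPM (female WT, SC-435).

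Clock (ENSMUSG00000029238, chr5:76209868-76304792, minus strand), the partner of ARNTL, was the steadiest member. It stayed between 44.7 and 74.6 CPM in 31 livers and was 10.1 CPM in male WT chow replicate 1, whose group mates had 53.4, 50.9 and 51.4 CPM. With that mouse the within-group SD of Clock was 0.45 on the log2 scale. Without it the SD was 0.16, a value below which 39.5% of the 12677 genes averaging 50 counts or more lay.

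Among the repressors, Per1 and Per2 encode period proteins and also respond directly to hormones and feeding. Per1 (ENSMUSG00000020893, chr11:69095217-69109960, plus strand) varied mostly among mice of the same group. Female WT mice with SC-435 had 52.3 and 39.0 CPM in replicates 1 and 2 but 4.08 and 4.84 CPM in replicates 3 and 4, and male KO mice with SC-435 had 25.3, 15.2, 64.3 and 15.1 CPM. Per2 (ENSMUSG00000055866, chr1:91415982-91459324, minus strand) was lowest as a group in those same WT females with SC-435, at 9.02, 7.20, 9.83 and 8.08 CPM, where the KO females with SC-435 had 13.7, 16.7, 15.7 and 16.6 CPM. These groups did not overlap. In male WT mice on chow Per2 was 6.12 CPM in replicate 1 and 32.6, 41.4 and 48.3 CPM in replicates 2 to 4, the lowest and the 3 highest values of all 32 livers.

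Per3 (ENSMUSG00000028957, chr4:151003652-151044665, minus strand) encodes a period protein that is dispensable for the core loop but strongly rhythmic in liver. In male WT mice on chow it was 1.25, 34.4, 32.1 and 37.4 CPM, and in male KO mice on chow 3.14, 5.37, 7.84 and 13.2 CPM. KO females with SC-435 had 23.6, 34.2, 27.5 and 30.5 CPM. The latter were all above 20.5 CPM, the highest of the WT females on chow, whereas each of the other 3 female groups held a mouse at 3.76 CPM or lower and a mouse at 20.5 CPM or higher. The whole of Per3 lies inside the longer gene Camta1 on the same strand, whose mean count was 188 against 621 for Per3.

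Cry1 (ENSMUSG00000020038, chr10:85131700-85185064, minus strand) is the cryptochrome that keeps the activator silent late in the repressive phase. Its deviations from the group means ran with those of Arntl (Pearson r = 0.75). Over the levels of the 32 mice, groups included, r was only 0.37. Cry1 reached 24.02 CPM in male WT chow replicate 1, whose group mates had 8.51, 9.59 and 7.57 CPM. In females its order was WT on chow (24.6, 20.7, 12.6 and 11.1 CPM), KO on chow (21.3, 11.8, 10.5 and 9.25 CPM), WT with SC-435 (12.2, 9.85, 3.91 and 6.18 CPM) and KO with SC-435 (6.01, 4.82, 4.13 and 3.62 CPM). Neighbours in that order overlapped, but every KO female with SC-435 lay below every KO female on chow.

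Nr1d1 (ENSMUSG00000020889, chr11:98767932-98775333, minus strand) and Nr1d2 (ENSMUSG00000021775, chr14:18204054-18239127, minus strand) encode the REV-ERB repressors of Arntl. Nr1d1 was 142, 151, 171 and 189 CPM in KO females with SC-435 and 68.9, 56.3, 65.3 and 129.7 CPM in KO females on chow, with no overlap. WT females with SC-435 had 52.3, 35.2, 194 and 166 CPM, so that replicates 1 and 2, which were high in Per1, were low in Nr1d1. Nr1d2 followed the same order of mice in that group, at 54.7, 40.7, 97.9 and 94.0 CPM. In male WT mice on chow Nr1d2 was 14.5, 129, 128 and 131 CPM while Nr1d1 was 207, 142, 112 and 102 CPM, and replicate 1 was therefore the lowest of the 32 livers for one REV-ERB and the highest for the other. Nr1d1 shares 1075 bases with Thra on the opposite strand (mean counts 4532 and 909), and whether the counting used strand is not given in the sources used here.

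Dbp (ENSMUSG00000059824, chr7:45705088-45710203, plus strand) and Tef (ENSMUSG00000022389, chr15:81802421-81826863, plus strand) encode output transcription factors driven by the activator. Dbp was 16.8, 137, 128 and 135 CPM in male WT mice on chow and 2.91, 6.96, 15.8 and 26.8 CPM in male KO mice on chow. It was 49.5, 84.1, 80.5 and 71.5 CPM in KO females with SC-435, against 9.60, 14.2, 4.58 and 43.7 CPM in KO females on chow. The KO females with SC-435 were the most uniform group for Dbp (SD 0.35 on the log2 scale, n = 4). WT females were not uniform on either diet, with 3.98, 1.46, 7.07 and 57.5 CPM on chow and 2.68, 0.805, 71.1 and 40.4 CPM with SC-435. Males with SC-435 lay at 19.4 to 62.8 CPM (WT) and 19.9 to 75.0 CPM (KO). Dbp shares 737 bases with Sphk2 on the other strand (mean counts 1716 and 3146).

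Tef varied less but in the same livers. Male WT mice on chow had 105, 239.7, 248 and 239.6 CPM, all above the 52.8, 78.4, 82.6 and 91.6 CPM of male KO mice on chow. With SC-435 the male KO mice had 129, 99.4, 197 and 104 CPM, which were all above those on chow.

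Ordered by mean level, no 2 neighbouring groups were separate for any of the 10 genes: in all 70 pairs of neighbours the mice overlapped. The edgeR quasi-likelihood test across the 8 groups (all 32 mice, adjusted over 17530 genes, of which 42.2% were past an adjusted p of 0.05) called 4 of the 10, namely Cry1 (adjusted p = 0.000983), Arntl (0.00122), Per2 (0.00474) and Tef (0.0102). The largest difference between group means was 1.89 on the log2 scale for Cry1 and 2.31 for Arntl. Dbp, with the largest difference of all (2.99), was not called (0.0901). Without male WT chow replicate 1 8 of the 10 were called, beside 61.0% of all genes, and only Per1 and Nr1d1 were not. With all libraries the share of members called was close to that of all genes.

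**Figure D2:**
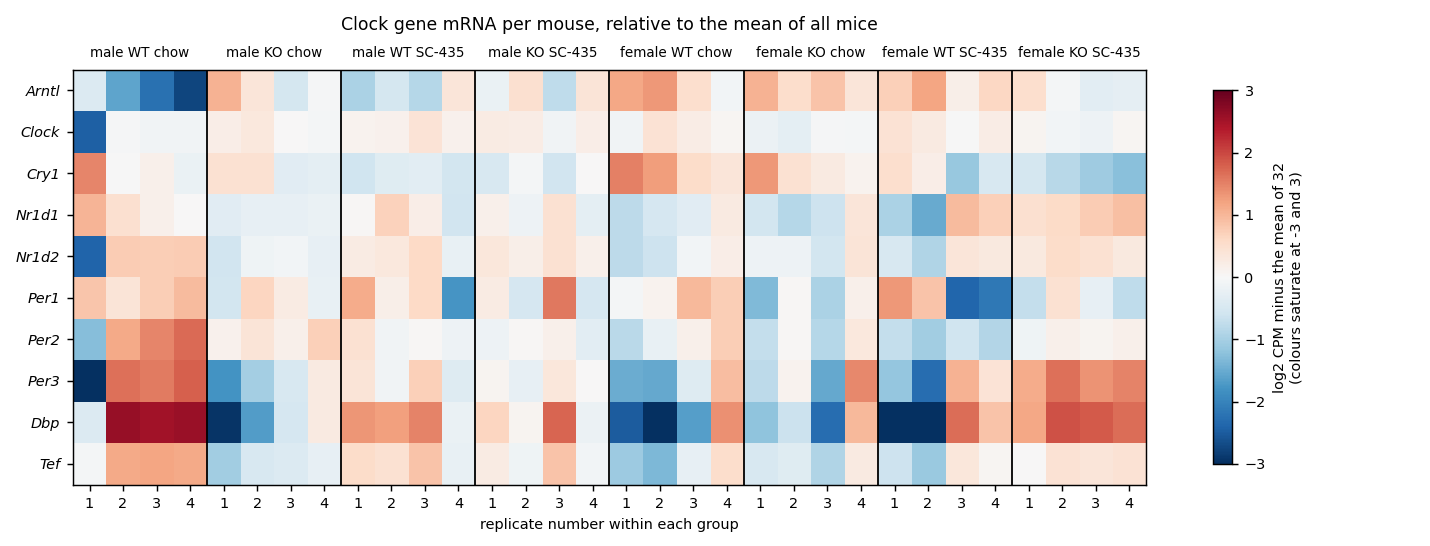
Each cell is the log2 CPM of a gene (rows) in a mouse (columns, by group and replicate number) minus that gene's mean over the 32 mice, from blue (lower) to red (higher). Colours saturate at -3 and 3. Replicates 2 to 4 of the male WT mice on chow are blue in Arntl (1.97 to 4.46 CPM) and red in Dbp (128 to 137 CPM), and replicate 1 is blue in Clock, Nr1d2 and Per3.

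The comparison of male KO with male WT mice on chow asked what loss of Cyp2c70 did in untreated males. In edgeR 0 of the 10 genes were called, beside 1.08% of all genes; 5 had an unadjusted p under 0.05, DESeq2 called 3 and limma voom with a weight per library called 7. The fold changes in KO (log2, ± SE) were 1.84 ± 0.52 for Arntl (adjusted p = 0.137), -2.95 ± 0.80 for Dbp (0.125) and -1.42 ± 0.31 for Tef (0.0734). Without replicate 1 of the WT mice, 7 genes were called, beside 7.3% of all genes. Arntl was then higher in KO by 2.45 ± 0.42 (adjusted p = 0.0189), and lower were Dbp (-3.32 ± 0.62, 0.0237), Per3 (-2.21 ± 0.40, 0.0220), Tef (-1.65 ± 0.17, 0.00474), Per2 (-1.07 ± 0.18, 0.0187), Nr1d2 (-0.98 ± 0.12, 0.00733) and Nr1d1 (-0.47 ± 0.12, 0.0494). The median of the 10 changes was -0.79, against 0.01 over all genes. Cholangiocyte and stellate markers moved in the same comparison: 3 of 5 cholangiocyte markers were higher in KO, 4 without WT replicate 1 (summed level 143 to 1178 CPM, against 24.02 to 34.7 CPM in WT), and the 5 stellate markers summed to 119 to 724 CPM in KO and 51.3 to 91.7 CPM in WT (0 of 5 called, 4 higher without WT replicate 1). Without that mouse both tested neutrophil markers were also higher and 2 of 5 endothelial markers lower in KO. None of the cholangiocyte and stellate markers was at 0. Their part in the clock gene values was not tested.

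The same comparison in females gave 0 calls of 10, beside 14.9% of all genes; 2 had an unadjusted p under 0.05 (Per1, -0.90 ± 0.34, adjusted p = 0.0999, and Clock, -0.32 ± 0.12, 0.109), DESeq2 called 1 and voom 2. Without WT replicate 1 or KO replicate 4, edgeR called 1. All KO females lay within the range of the WT females for Dbp. Whether the effect of the KO differed between the sexes was tested as an interaction over the 16 mice on chow: 0 of 10 were called, beside 0.0235% of all genes, with 3 at an unadjusted p under 0.05, 0 by DESeq2 and 6 by voom. Without replicate 1 of the male WT mice none was called either, beside 0.431% of all genes, with 6 under 0.05 unadjusted; Arntl came nearest (-2.54 ± 0.53 in females relative to males, adjusted p = 0.0506).

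Treatment of female KO mice with SC-435 addressed the effect of the inhibitor on the diseased liver. Here 4 of the 10 genes were called by edgeR, beside 17.8% of all genes. Nr1d1 rose by 1.03 ± 0.24 (log2, ± SE; adjusted p = 0.0173) and Dbp by 1.99 ± 0.55 (0.0337), while Cry1 fell (-1.51 ± 0.27, 0.00690) as did Arntl (-0.71 ± 0.20, 0.0341). The activator gene Arntl and its late repressor Cry1 were thus lower, and Nr1d1 and the output gene Dbp higher. Tef (0.63 ± 0.21, 0.0658), Nr1d2 (0.48 ± 0.17, 0.0796) and Per3 (1.17 ± 0.51, 0.136) were not called, and the median over the 10 was 0.39, against -0.02 over all genes. Cry1 and Nr1d1 kept their call without any 1 library. That of Arntl was lost without chow replicate 1, 2 or 3 or SC-435 replicate 2, 3 or 4 (adjusted p up to 0.0964), and that of Dbp without chow replicate 1 or 2 or any SC-435 replicate (up to 0.0933). The count was 2 without chow replicate 1 or 2 or SC-435 replicate 2, 3 or 4, and 7 without chow replicate 4, the KO female with the highest Dbp on chow. Macrophage markers moved alongside: 5 of 5 fell, from a summed 306 to 444 CPM on chow to 195 to 298 CPM with SC-435. Of the other lists, 2 of 5 cholangiocyte (131 to 288 CPM, then 97.5 to 141 CPM) and 2 of 5 stellate markers (174 to 529 CPM, then 121 to 162 CPM) fell, and the hepatocyte markers, of which 0 of 5 were called, summed to 46082 to 67055 CPM and then 72015 to 85872 CPM. Both tested neutrophil markers and 1 of 6 lymphocyte markers fell, and the defining neutrophil marker Ly6g was at 0 in females with SC-435. Their part was not tested.

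In male KO mice with SC-435 2 of the 10 were called, both higher: Nr1d2 (0.54 ± 0.12, adjusted p = 0.0176) and Tef (0.80 ± 0.24, 0.0486). This was close to the share of all genes called, 17.2%. Dbp (1.55 ± 0.64, 0.116) and Per2 (-0.42 ± 0.15, 0.0827) were not called. The call of Nr1d2 was lost without SC-435 replicate 1 (0.0538), and that of Tef without chow replicate 1, 2 or 3 or SC-435 replicate 1, 3 or 4 (up to 0.0994), so that 0 were called without SC-435 replicate 1, 1 without each of those other libraries, and 4 without chow replicate 4. Scaled by library size alone, neither was called (Nr1d2 0.101, Tef 0.126) and Per2, lower with SC-435, was called instead. Cholangiocyte markers (143 to 1178 CPM on chow, 48.9 to 59.6 CPM with SC-435) and stellate markers (119 to 724 CPM, 46.8 to 88.4 CPM) fell in 4 of 5 each, both tested neutrophil markers and 1 of 5 macrophage markers fell, and 2 of 5 endothelial markers rose; their part was not tested.

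In WT mice SC-435 changed no clock gene past the threshold. In females 0 of 10 were called beside 4.28% of all genes, 2 had an unadjusted p under 0.05 (Cry1, -1.11 ± 0.35, adjusted p = 0.117, and Per2, -0.88 ± 0.28, 0.108), and DESeq2 and voom called 1 each; without chow replicate 1 edgeR called 1. In males 0 of 10 were called beside 0.0394% of all genes, with 1 under 0.05 unadjusted (Cry1, -0.98 ± 0.37, adjusted p = 0.718), 0 by DESeq2 and 6 by voom. Male WT chow replicate 1 decided this: without it 3 were called, all lower with SC-435, beside 2.53% of all genes, namely Per2 (-1.37 ± 0.17, 0.00844), Per3 (-1.45 ± 0.23, 0.0176) and Dbp (-1.49 ± 0.32, 0.0467). The genotype by SC-435 interaction was called for 0 of 10 in females (2.64% of all genes; 1 under 0.05 unadjusted, 1 by DESeq2, 1 by voom, and 1 by edgeR without KO chow replicate 4) and for 0 of 10 in males (0.0906% of all genes; 2, 0 and 4). Without male WT chow replicate 1 it was called for 1 gene in males, Nr1d2 (0.99 ± 0.21, adjusted p = 0.0477), beside 0.697% of all genes. These comparisons share their chow groups with the ones above.

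**Figure D3:**
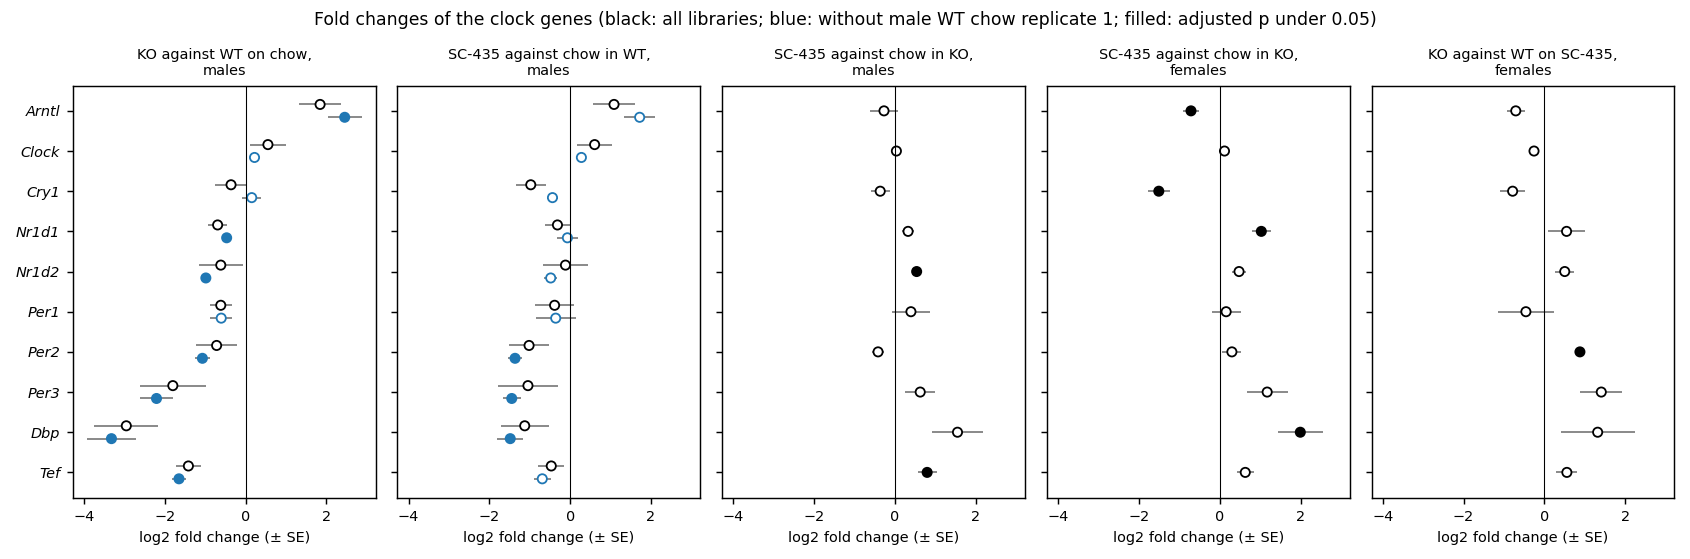
Log2 fold change ± SE (x axis) of each clock gene (y axis) in 5 comparisons, from edgeR; filled points have an adjusted p under 0.05, black points use all libraries and blue points leave out male WT chow replicate 1. In the first panel no black point and 7 blue points are filled, and Dbp has the lowest value in both.

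On SC-435, KO and WT females differed in 1 of the 10 genes, close to the share of all genes called, 10.9%. Per2 was higher in KO by 0.88 ± 0.11 (adjusted p = 0.00171) and stayed called without any 1 library. Per3 (1.41 ± 0.52, 0.110) and Arntl (-0.71 ± 0.22, 0.0675) were not called. Without WT SC-435 replicate 3, the count was 5, and without KO SC-435 replicate 1 it was 2. Cholangiocyte markers were higher in KO in 5 of 5 (97.5 to 141 CPM against 31.04 to 37.7 CPM) and stellate markers in 3 of 5 (121 to 162 CPM against 46.0 to 74.1 CPM), 2 of 5 hepatocyte markers were lower, and their part was not tested. In males on SC-435, 0 of 10 were called, beside 0.0324% of all genes, with 0 under 0.05 unadjusted and 0 by DESeq2; the changes ran from -0.31 for Dbp to 0.45 for Arntl.

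Females and males were compared within each genotype and diet. WT mice on chow gave 0 calls of 10 beside 1.49% of all genes (4 under 0.05 unadjusted, 1 by DESeq2, 8 by voom), although Arntl did not overlap (2.30 ± 0.52 higher in females, adjusted p = 0.0795). Without replicate 1 of the males 6 were called beside 9.53% of all genes: Arntl (2.93 ± 0.38, 0.00195) and Cry1 (1.007 ± 0.26, 0.0433) were higher in females, and Nr1d2 (-1.03 ± 0.21, 0.0160), Per2 (-1.38 ± 0.30, 0.0211), Tef (-1.49 ± 0.38, 0.0392) and Per3 (-1.92 ± 0.51, 0.0443) lower. In KO mice on chow 0 of 10 were called beside 2.73% of all genes (1 under 0.05 unadjusted, 0 by DESeq2, 1 by voom). In WT mice with SC-435 Per2 alone was called, lower in females (-0.89 ± 0.16, 0.0100), beside a similar share of all genes (7.05%), and 2 were called without male replicate 4. Of the markers, 1 hepatocyte marker was higher and 1 lower in females there, and 2 of 5 endothelial and 1 of 5 tested lymphocyte markers were higher; their part was not tested. In KO mice with SC-435, 3 were called, beside a similar share of all genes (26.3%). Per3 (1.34 ± 0.14, 6.52e-05) and Nr1d1 (0.62 ± 0.15, 0.0120) were higher in females and Cry1 lower (-0.65 ± 0.18, 0.0232). The call of Cry1 was lost without male replicate 2 or 4 or female replicate 2, 3 or 4 (up to 0.0691), and 5 genes were called without male replicate 3, the male with the highest Dbp, Per1 and Tef of its group. In the same comparison 4 of 5 cholangiocyte markers (97.5 to 141 CPM in females, 48.9 to 59.6 CPM in males) and 4 of 5 stellate markers were higher in females, and of the hepatocyte markers 1 was higher and 2 lower; their part was not tested.

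Spread among mice of the same group was large. Dbp had a within-group SD of 1.65 on the log2 scale, above 99.9% of the 12677 genes averaging 50 counts or more. Per3 had 1.22 (above 99.4%) and Per1 0.98 (above 98.4%), against a median of 0.29 over these genes. Without male WT chow replicate 1, the SD was 1.60 for Dbp, 0.91 for Per3 and 1.0002 for Per1, each still above at least 98.8% of these genes. Deviations of Arntl and Dbp from their group means had a Pearson r of -0.75 and a Spearman rho of -0.82 over the 32 mice, each with a permutation p of 1e-05, the smallest that 100000 permutations within groups can give. This was the only relation tested; the others are descriptions. Its r was -0.81 in the 16 females, -0.89 in the 16 males, -0.74 without the 2 mice farthest in Arntl and -0.72 without male WT chow replicate 1. Each point is 1 library, so both genes share its depth and scaling.

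**Figure D4:**
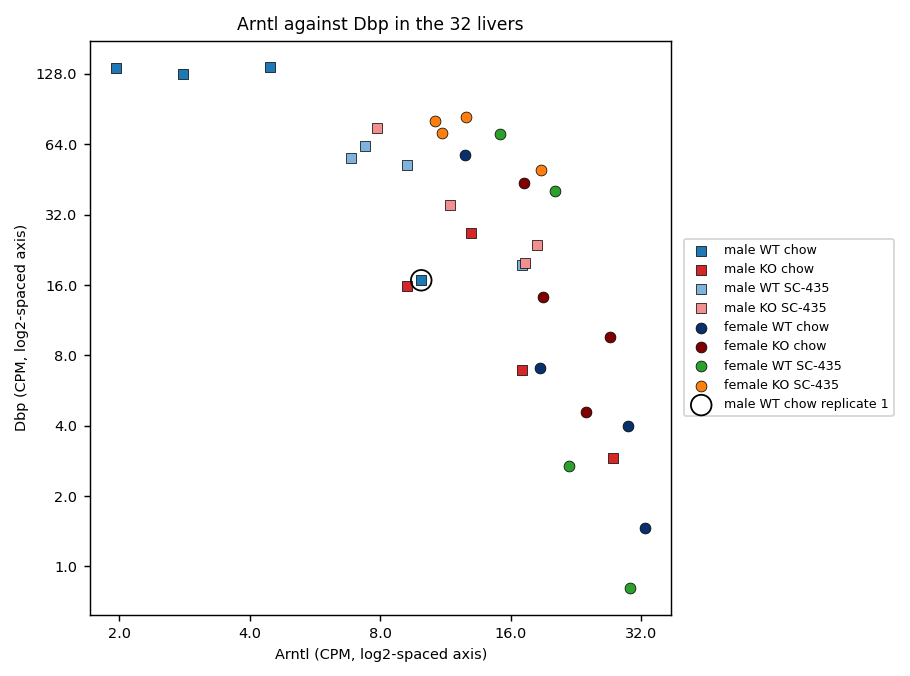
Dbp (y axis) against Arntl (x axis), both in CPM on log2-spaced axes, 1 point per mouse (squares males, circles females), with male WT chow replicate 1 ringed. Mice run from high Dbp and low Arntl (replicates 2 to 4 of the male WT mice on chow, 128 to 137 CPM of Dbp) to low Dbp and high Arntl (0.805 CPM of Dbp at 30.1 CPM of Arntl, female WT with SC-435).

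Against Arntl, the deviations of Tef (r = -0.85), Per3 (-0.78), Per2 (-0.75) and Nr1d2 (-0.75) ran the opposite way and those of Cry1 (0.75) the same way, whereas Per1 (-0.30), Nr1d1 (-0.29) and Clock (-0.37) followed it less. Without male WT chow replicate 1 the value was -0.51 for Nr1d1 and 0.36 for Clock. Nr1d1 had an r of -0.66 in females and 0.04 in males. The value in males includes male WT chow replicate 1, the liver with the highest Nr1d1 of all. It was not computed without that mouse. Against Dbp, Tef (0.93) and Per3 (0.87) were closest. Among the 12667 other genes averaging 50 counts or more, those most like Arntl were Npas2 (r = 0.92, an activator that can stand in for CLOCK), Chka (0.89), Stat5a (0.84), Zbtb5 (0.84) and Nfil3 (0.83, a repressor at D-boxes), and those most opposite were Ppp2r5e (-0.79), Mtss1 (-0.79), Bhlhe41 (-0.79), Mars2 (-0.79) and Timp3 (-0.78). The genes most like Dbp were Bhlhe41 (0.87, a repressor at E-boxes), Tns2 (0.76), Chn2 (0.75), Bhlhe40 (0.74) and Azin2 (0.74), and among those most opposite were Npas2 (-0.80), Lmo4 (-0.76), Nfil3 (-0.76) and Ppard (-0.75). Known clock components thus stood in all 4 sets.

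To place each mouse on this axis, the log2 CPM of Arntl was subtracted from that of Dbp. The genes differ in length, so the zero of this difference carries no meaning and only differences between mice are read. Male WT mice on chow had 0.75, 4.93, 5.49 and 6.07, and male KO mice on chow -3.22, -1.29, 0.77 and 1.04. Replicates 2 to 4 of the male WT mice lay above each of the other 29 livers. The WT females spanned the widest ranges, from -4.44 to 2.20 on chow and from -5.15 to 2.23 with SC-435, and KO females on chow ran from -2.37 to 1.35. KO females with SC-435 spanned the narrowest, with 1.40, 2.73, 2.91 and 2.68, all above every KO female on chow. Males with SC-435 lay at 0.19 to 3.09 (WT) and 0.20 to 3.24 (KO). The difference therefore varied both between groups and among mice that shared a group, sex and diet, and its dependence on the hour of collection or on feeding was not tested.

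Further clock genes were counted in the same fits. Of 14 other core clock genes, 5 were called in KO females with SC-435 (17.8% of all genes), among them Ciart (2.01 ± 0.27, adjusted p = 0.00258), a repressor of the activator, and Bhlhe41 (2.06 ± 0.36, 0.00667), which rose, and Nfil3 (-0.91 ± 0.18, 0.00954), which fell. In KO males with SC-435, where 17.2% of all genes were called, 1 of 14 was (Timeless, -0.46 ± 0.14, 0.0490). In male KO mice on chow 0 of 14 were called (1.08% of all genes), and 7 (2 higher, 5 lower) without male WT chow replicate 1 (7.3% of all genes). KO females with SC-435 differed from WT females with SC-435 in 3 of 14 (10.9% of all genes), among them Nfil3 (-1.17 ± 0.24, 0.0138), and from KO males with SC-435 in 5 of 14 (26.3% of all genes), among them Csnk1e, a kinase of the PER proteins (0.59 ± 0.10, 0.00171), and Cry2 (0.46 ± 0.11, 0.00943).

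Of 10 rhythmic liver output genes, 5 were called in KO females with SC-435, beside 17.8% of all genes: Wee1 (1.10 ± 0.17, adjusted p = 0.00429), a cell cycle kinase, Lpin1 (1.24 ± 0.29, 0.0175) and Por (0.64 ± 0.17, 0.0307) rose with 1 further gene, and Insig2 (-1.05 ± 0.16, 0.00365) fell. In KO males with SC-435, 3 of 10 rose, beside 17.2% of all genes called, with Upp2 (1.95 ± 0.36, 0.0103) first. Upp2 (1.67 ± 0.16, 0.00184) and Por (0.69 ± 0.12, 0.0142) also rose in WT females with SC-435, where 4.28% of all genes and none of the 10 clock genes were called. In KO females on chow, beside 14.9% of all genes called, 2 of 10 fell, Alas1 (-1.46 ± 0.43, 0.0452) and Lpin1 (-1.61 ± 0.48, 0.0480). In KO males on chow 0 of 10 were called (1.08% of all genes). Without male WT chow replicate 1 the count was 4, all lower in KO (7.3% of all genes).

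Genes that respond to feeding and glucocorticoids, and to temperature, were counted because both can set the phase of the liver clock. Of 13 feeding and glucocorticoid genes, 3 fell in KO females on chow, beside 14.9% of all genes called, among them Angptl4 (-1.56 ± 0.27, adjusted p = 0.00592) and Fkbp5 (-1.13 ± 0.30, 0.0332), and 0 were called in KO males on chow (1.08% of all genes; 1 without male WT chow replicate 1). In the same females, cell type markers moved too: 4 of 5 macrophage, 3 of 5 cholangiocyte, 3 of 5 stellate, both tested neutrophil and 1 of 6 lymphocyte markers were higher in KO and 3 of 5 hepatocyte markers lower, and their part was not tested. In KO females with SC-435, where 17.8% of all genes were called, 2 of 13 were called, 1 higher and 1 lower. The lower was Pck1, a gene of gluconeogenesis (-0.50 ± 0.14, 0.0377). Of 8 temperature responsive genes, 3 fell in KO males with SC-435 (17.2% of all genes called), among them the heat shock gene Hspa1a (-1.93 ± 0.47, 0.0257), and in KO mice on SC-435 5 of 8 were lower in females than in males (26.3% of all genes called). In KO mice on chow 3 of 8 were lower in females (2.73% of all genes called), where none of the 10 clock genes was called. In males on chow 4 of 8 were higher in KO without male WT chow replicate 1 (7.3% of all genes called), and 0 were called with it. Across the 8 groups, 8 of 14 other core clock genes, 7 of 10 outputs, 9 of 13 feeding and glucocorticoid genes and 5 of 8 temperature responsive genes were called, beside 42.2% of all genes. Without male WT chow replicate 1 these counts were 9, 7, 9 and 7, beside 61.0% of all genes. The relation of these lists to the values of the 10 clock genes was not tested.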

How the data were processed

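Liver poly-A RNA of 32 mice (8 groups, 4 each) was sequenced by the authors, who aligned reads to mm10 with HISAT2 2.0.5 and deposited raw counts per gene from featureCounts 1.5.0-p3 (tools per the submitters' processing notes, which also list DESeq2 1.20.0 and GATK 4.1.1.0). The deposited table also holds fold changes and p-values of the authors' own comparisons, which were not used, and gene lengths. The 10 members and all gene lists were chosen with earlier results of these data known. Counts were tested with edgeR 4.0.16 (R 4.3.3; filterByExpr, TMM, quasi-likelihood test, Benjamini-Hochberg over all genes tested, called at an adjusted p under 0.05), within the 2 groups of each pair and over 16 or 32 libraries for interactions and the 8-group test, 16 comparisons in all. Levels are CPM with TMM factors over 32 libraries, and correlations use log2 CPM (prior count 2). DESeq2 1.42.0, limma 3.58.1 (voom with a quality weight per library) and other scalings, filters and designs were alternatives. Scripts were tested on simulated data. Named genes were the 10 members, up to 4 genes per list and comparison with the smallest adjusted p, and the 5 most like and 5 most opposite to Arntl and Dbp. The labels do not say how mice were allotted to cages or litters, so p-values measure the spread between these mice. No 2 libraries of a group were alike within sampling noise (48 pairs). Counting error is small at these depths, and the number of mice limits precision. Gene overlaps come from the positions in the deposited table, and what lies at each printed sequence from GENCODE vM21. Some genes that this rule names are not reported here.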

Additional observations from a re-analysis of the deposited data

Results flagged for a closer look

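In the 80 sets of 4 mice (10 genes in 8 groups), 8 held 1 mouse far from its 3 group mates by Dixon's test on log2 CPM, and chance gives about 1 in 20. Of these, 5 were male WT chow replicate 1, which was low in Clock (10.1 CPM, others 50.9 to 53.4), Per3 (1.25 CPM, others 32.1 to 37.4), Nr1d2 (14.5 CPM, others 128 to 131), Dbp (16.8 CPM, others 128 to 137) and Tef (105 CPM, others 239.6 to 248). The values come from a single library and are not independent of each other.

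The remaining 3 were replicate 3 of the male WT mice with SC-435, high in Clock (72.5 CPM, others 58.6 to 60.1), replicate 3 of the male KO mice with SC-435, low in Clock (51.4 CPM, others 63.3 to 65.5), and replicate 4 of the male WT mice with SC-435, low in Dbp (19.4 CPM, others 52.0 to 62.8).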

How the results depend on the processing

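No fold change of a called clock gene turned its direction under the alternatives run. In the order KO against WT on chow (females, males), SC-435 against chow in KO (females, males), SC-435 against chow in WT (females, males), KO against WT on SC-435 (females), females against males (WT chow, KO chow, WT SC-435, KO SC-435), sex difference of the KO effect, genotype by SC-435 interaction (females, males) and 8 groups, edgeR called 0, 0, 4, 2, 0, 0, 1, 0, 0, 1, 3, 0, 0, 0 and 4, and voom with quality weights 2, 7, 7, 5, 1, 6, 2, 8, 1, 2, 5, 6, 1, 4 and 8. DESeq2 gave 1 (KO against WT on chow, females), 3 (males), 1 (SC-435 in WT females), 3 (KO against WT on SC-435, females), 1 and 2 (females against males, WT on chow and on SC-435) and 1 (female interaction), with 6 in SC-435 in KO females and 5 over the 8 groups. With all 32 libraries in 1 fit the counts moved to 3 (KO against WT on chow, males), 1 and 0 (SC-435 in KO females and males), 0 (KO against WT on SC-435, females), and 2, 0 and 0 (females against males, WT chow, WT SC-435, KO SC-435). In that fit, Cry1 alone kept its call in KO females (adjusted p up to 0.00728 over the alternatives), while Per2 (KO against WT on SC-435 in females, 0.306) and Per3 (females against males, KO SC-435, 0.291) lost theirs. No filter gave 1 (KO against WT on chow, males), 2 (KO against WT on SC-435, females), 1 and 2 (females against males, WT on chow and SC-435). It also added Tef to the calls for SC-435 in KO females, and Dbp to those for females against males (KO SC-435). Library size alone gave 1 (SC-435 in KO males) and 1 and 2 (females against males, WT on chow and SC-435), and the call of Tef over the 8 groups was lost (0.0848). A mean of at least 50 counts gave 1 in KO males. A log2 fold change beyond 1 left 3 for SC-435 in KO females and 0 in KO males, 0 for KO against WT on SC-435 in females, and 0 and 1 for females against males with SC-435 (WT and KO).

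Over all genes kept, replicate numbers did not pair the mice. Deviations of same-numbered libraries correlated at -0.26 to 0.33, with at most 2 of 4 pairs above 0.1. These correlations do not address the clock genes alone. Dbp minus Arntl (log2) was highest in replicate 4 of male WT, male KO, female WT and female KO mice on chow (6.07, 1.04, 2.20 and 1.35). With SC-435 it was highest in replicate 3 of each group (3.09, 3.24, 2.23 and 2.91). Whether replicate number followed the order of collection was not tested. With the replicate block, counts moved to 1 (SC-435 in KO males), 1 (SC-435 in WT females), 2 (KO against WT on SC-435, females), 1 and 2 (females against males, WT on chow and SC-435), 5 (SC-435 in KO females), 4 (females against males, KO SC-435) and 6 (8 groups), and the other counts stayed at 0.

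Leaving out 1 library at a time gave 0 to 1 and 0 to 7 calls (KO against WT on chow, females and males), 2 to 7 and 0 to 4 (SC-435 in KO), 0 to 1 and 0 to 3 (SC-435 in WT), 1 to 5 (KO against WT on SC-435, females), 0 to 6, 1 to 2 and 2 to 5 (females against males, WT chow, WT SC-435, KO SC-435), 0 to 1 for the interaction in each sex, and 4 to 8 over the 8 groups. The cause was not tested. With 4 mice of unknown collection hour in a group, the wide spread of Dbp, Per1 and Per3 limits which differences can be detected.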
